A study of Mus musculus with 11 samples.

Results

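The genes described here are 9 genes of interferon signalling and of the interferon response, *Stat2*, *Irf1*, *Irf7*, *Irf9*, *Ifit1*, *Ifit3*, *Isg15*, *Ifih1* and *Bst2*, out of 24849 genes in the count table. They were taken by gene name, each had a single entry in the table, and all 9 had enough counts to be tested in each comparison. The libraries come from AML12, a mouse hepatocyte line derived from a mouse with a TGF-alpha transgene, and all groups therefore share that background. The KO group (4 libraries, replicates 5 to 8) consists of puromycin-resistant cells in which *Txndc5*, the gene of an endoplasmic reticulum thioredoxin-like protein, was cut by CRISPR/Cas9 in exon 5 and recombined with a resistance gene. Its genotype label reads TXNDC5 Knockdown. The WT group (3 libraries, 5-6, 7 and 8) is the unedited line, and the KI group (4 libraries, 5 to 8), with the genotype TXNDC5 Knockin, is described as overexpressing TXNDC5 from the ROSA26 locus. No interferon, virus or other stimulus is given in the labels for any group. In the KO cells the edit and the selection cannot be told apart, and nothing in the sources says that the libraries of a group come from separate cultures. The p-values therefore measure the spread between these libraries, which may be technical.

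Total counts were between 29840366 and 38422243 per library. *Txndc5*, measured in every library first as a check of the labels, had between 8.50 and 12.9 CPM (counts scaled to library size) in the KO libraries, between 138 and 147 in the WT and between 158 and 180 in the KI libraries. It was lower in the KO than in the WT cells (log2 fold change -3.81), but the higher level in the KI cells did not pass the test (log2 fold change 0.24, adjusted p = 0.136 in edgeR's quasi-likelihood test; 0.57 and called when scaled by library totals), so the KI libraries are the libraries labelled KI throughout. All CPM here are scaled by TMM, edgeR's correction for library composition. The WT libraries stood apart in composition, since a single newly assembled entry took between 11.3% and 17.1% of their counts against between 4.32% and 9.12% in the other libraries. Scaling by library totals instead shifted the median over all genes tested, on the log2 scale, from -0.03 to 0.38 for KO against WT and from -0.02 to 0.30 for KI against WT, but only from 0.00 to 0.06 for KO against KI. With that scaling, 72.8% of all genes called were higher for KO against WT and 76.3% for KI against WT (48.5% and 50.2% with TMM), and 56.1% for KO against KI, so that each count with library totals given here is to be read against these shares. Of 11 hepatocyte markers in the table, 10 were above 3 counts in at least 1 library, and *Apoa2* was not. The hepatocyte list summed to between 8341 and 10309 CPM in the KO, 5071 and 6885 in the WT and 7228 and 8734 in the KI libraries, and its members did not have the same order: *Alb* (albumin) averaged 4115 CPM in the KO, 513 in the WT and 246 in the KI cells, *Ttr* (transthyretin) 438, 826 and 597, and *Krt8* (a keratin) 2660, 2839 and 4357. The cholangiocyte list, of which 3 of 4 genes exceeded 3 counts and *Epcam* was at 0, summed to between 1086 and 1221 CPM in the KO, 861 and 1091 in the WT and 710 and 974 in the KI libraries, with *Krt7* at means of 17.0, 177 and 118 and *Krt19* at 1097, 770 and 747. The leukocyte markers *Adgre1* and *Tyrobp* and the plasmacytoid dendritic cell marker *Siglech* were at 0 in all libraries. *Ccr9*, the other plasmacytoid dendritic cell marker listed, had at most 8 counts in a library. The leukocyte list as a whole, of which 5 of 7 genes exceeded 3 counts, summed to between 377 and 465 CPM in the KO, 481 and 669 in the WT and 375 and 423 in the KI libraries, nearly all of it from *Cd14*. Its other members differed in order. In the KO, WT and KI cells *Cd68* averaged 1.5, 6.1 and 2.0 CPM, *Ptprc* 0.14, 2.10 and 1.81, and *Lyz2* 0.533, 0.263 and 0.785, and *Csf1r* had at most 6 counts. The part of these markers in the results was not tested. In RNA from bulk cells, fewer cells with a transcript and less of it per cell cannot be told apart.

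Interferons are secreted proteins that warn cells of infection. Type I and type III interferons bind their receptors, the kinases JAK1 and TYK2 then phosphorylate STAT proteins, STAT2 among them, which join IRF9 in a complex that binds interferon-stimulated response elements in promoters. Interferon gamma acts on a different element, the gamma-activated sequence, and IRF1 is a main product of that branch. IRF7, itself interferon-induced, drives further interferon transcription. IFIH1 (MDA5) senses long double-stranded RNA in the cytosol, and IFIT1, of the same family as IFIT3, binds viral RNA. ISG15 is a ubiquitin-like modifier, and BST2 (tetherin) holds budding virus particles at the cell surface. In the liver, hepatocytes carry receptors for interferons and make many of the induced proteins.

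The promoter windows of the 9 genes, 250 bases before to 50 bases after each start in RefSeq (GRCm38.p6), were searched for both elements. The letters GAAANNGAAA or, on the other strand, TTTCNNTTTC stood for the interferon-stimulated response element (ISRE-type), and TTCNNNGAA, which reads alike on both strands, for the gamma-activated sequence (GAS-type). An ISRE-type match was found for *Stat2*, *Ifit1*, *Ifit3*, *Isg15*, *Ifih1* and *Bst2*, and for 1131 of all 32851 windows (3.44%). A GAS-type match was found for *Irf1* and *Bst2*, and for 2726 of all windows (8.30%). The windows of *Irf7* and *Irf9* do not hold these letters. The stretches that hold a match before the start are shown because genes with such matches, *Isg15*, *Ifit1*, *Ifit3* and *Bst2*, had different patterns over the 3 lines. They are written 5′ to 3′ on the strand of the gene, with the matches in capitals. *Stat2* has 1 match that starts 222 bases before the start of the gene (chr10:128270248-128270325, plus strand). *Ifit1* has matches 104 and 85 bases before it (chr19:34640745-34640853, plus strand), and *Ifit3*, on the same chromosome, has them at 156 and 122 bases (chr19:34583333-34583456, plus strand). In *Isg15* 3 matches overlap, from 78 bases before the start (chr4:156200835-156200936, minus strand). *Bst2* has a GAS-type match at 136 bases that runs into a pair of overlapping ISRE-type matches (chr8:71537547-71537648, minus strand), and *Irf1* has a GAS-type match at 90 bases (chr11:53769884-53769972, plus strand).
Stat2: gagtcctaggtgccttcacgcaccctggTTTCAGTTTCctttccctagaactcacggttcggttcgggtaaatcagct
Ifit1: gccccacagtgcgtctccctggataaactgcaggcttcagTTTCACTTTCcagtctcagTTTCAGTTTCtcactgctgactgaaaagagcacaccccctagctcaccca
Ifit3: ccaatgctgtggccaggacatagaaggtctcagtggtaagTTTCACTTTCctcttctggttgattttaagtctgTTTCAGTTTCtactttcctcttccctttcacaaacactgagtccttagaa
Isg15: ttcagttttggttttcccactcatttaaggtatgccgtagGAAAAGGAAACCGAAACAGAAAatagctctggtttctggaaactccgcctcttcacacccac
Bst2: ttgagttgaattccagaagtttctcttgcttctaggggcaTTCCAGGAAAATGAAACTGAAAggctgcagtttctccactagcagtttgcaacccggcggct
Irf1: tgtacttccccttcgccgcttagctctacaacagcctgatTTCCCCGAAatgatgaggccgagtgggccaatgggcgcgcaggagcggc

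**Figure D1:**
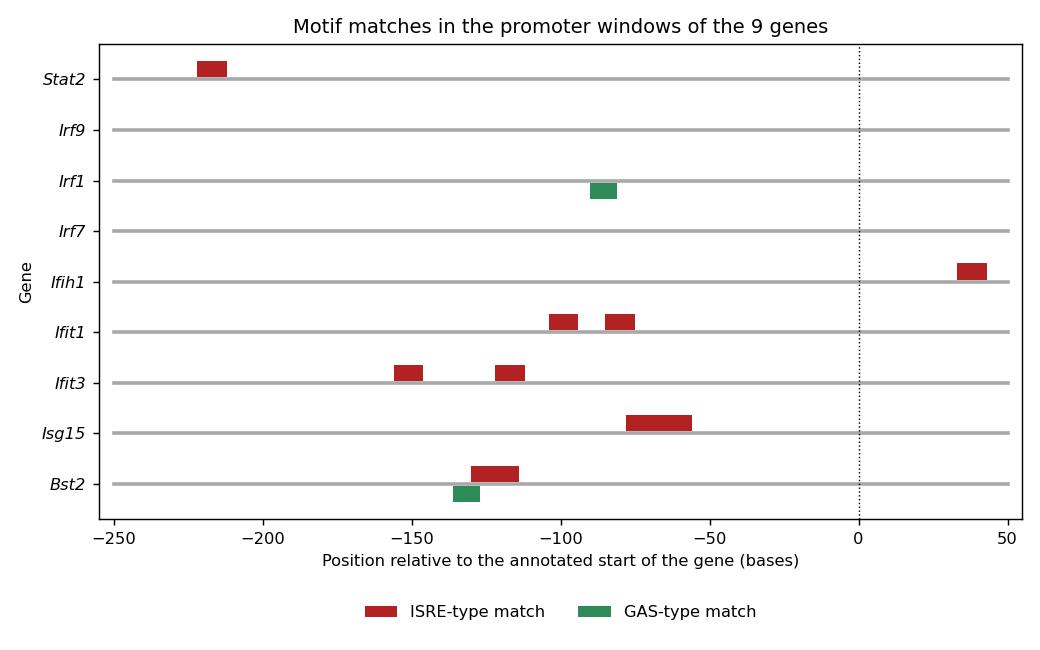
Positions of ISRE-type (red) and GAS-type (green) matches in the promoter windows of the 9 genes, in bases relative to the annotated start; grey lines are the windows from 250 bases before to 50 after the start, and for *Irf1* and *Irf9*, which have 2 windows, the matches of both are drawn on 1 line. The matches of *Ifit1*, *Ifit3*, *Isg15* and *Bst2* lie between 156 and 66 bases before the start, that of *Ifih1* begins 33 bases after it, and *Irf7* and *Irf9* have none.

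Over all genes with a window, shares called were computed with and without an ISRE-type match. Between the KO and WT cells, 30.5% of the 371 tested genes with an ISRE-type match were higher in the KO cells and 29.0% of the 9495 without. Between the KI and WT cells, 24.3% of those with a match were lower and 20.4% of those without. Between the KO and KI cells, 33.2% of those with a match were higher in the KO cells and 22.5% lower, against 29.0% and 26.2% of those without. Within a list of interferon-induced effectors, which holds *Ifit1*, *Ifit3*, *Isg15* and *Bst2*, 8 of 23 genes with a match (34.8%) and 15 of 25 without (60.0%) were higher for KO against WT, and 13 of 23 with a match (56.5%) and 9 of 24 without (37.5%) were lower for KI against WT. Their median log2 fold changes for KI against WT were -0.81 with a match and -0.15 without. For KO against KI, 12 of 23 with a match (52.2%) and 16 of 26 without (61.5%) were higher, and 2 of 23 (8.70%) and 4 of 26 (15.4%) were lower. These shares are descriptions, with no test.

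The 9 genes did not move as a group. The 4 genes *Isg15*, *Irf7*, *Ifih1* and *Stat2* were higher in the KO than in the WT cells, *Bst2* and *Ifit3* were lower, and *Irf1*, *Irf9* and *Ifit1* did not pass the test. Changes were called at an adjusted p (Benjamini-Hochberg over all genes tested) under 0.05 in edgeR's quasi-likelihood test. By this rule 55.1% of the 13359 genes tested were called, 26.7% as higher and 28.4% as lower in the KO cells, so that 6 of 9 is not far from the background. The KO and WT libraries did not overlap for the same 6 genes, against 55.1% of all genes. Between the KI and WT cells, *Stat2* and *Irf1* were higher in the KI cells, *Irf7*, *Irf9*, *Ifit1*, *Isg15* and *Bst2* were lower, and *Ifit3* and *Ifih1* did not pass. Here 42.3% of the 13534 genes tested were called, 21.2% as higher and 21.0% as lower, and the libraries of 7 of the 9 genes did not overlap, against 44.6% of all genes. Between the KO and KI cells, *Irf7*, *Irf9*, *Ifit1*, *Isg15* and *Ifih1* were higher in the KO cells, *Irf1* and *Ifit3* were lower, and *Stat2* and *Bst2* did not pass. In this comparison 54.0% of the 13269 genes tested were called, 27.0% in each direction, and 48.8% of all genes did not overlap, as against 8 of the 9. The median log2 fold change of the 9 genes was 0.18 for KO against WT, -0.69 for KI against WT and 1.37 for KO against KI, where the medians of all genes tested were -0.03, -0.02 and 0.00. The first 2 comparisons share the WT libraries and are not independent of each other.

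**Figure D2:**
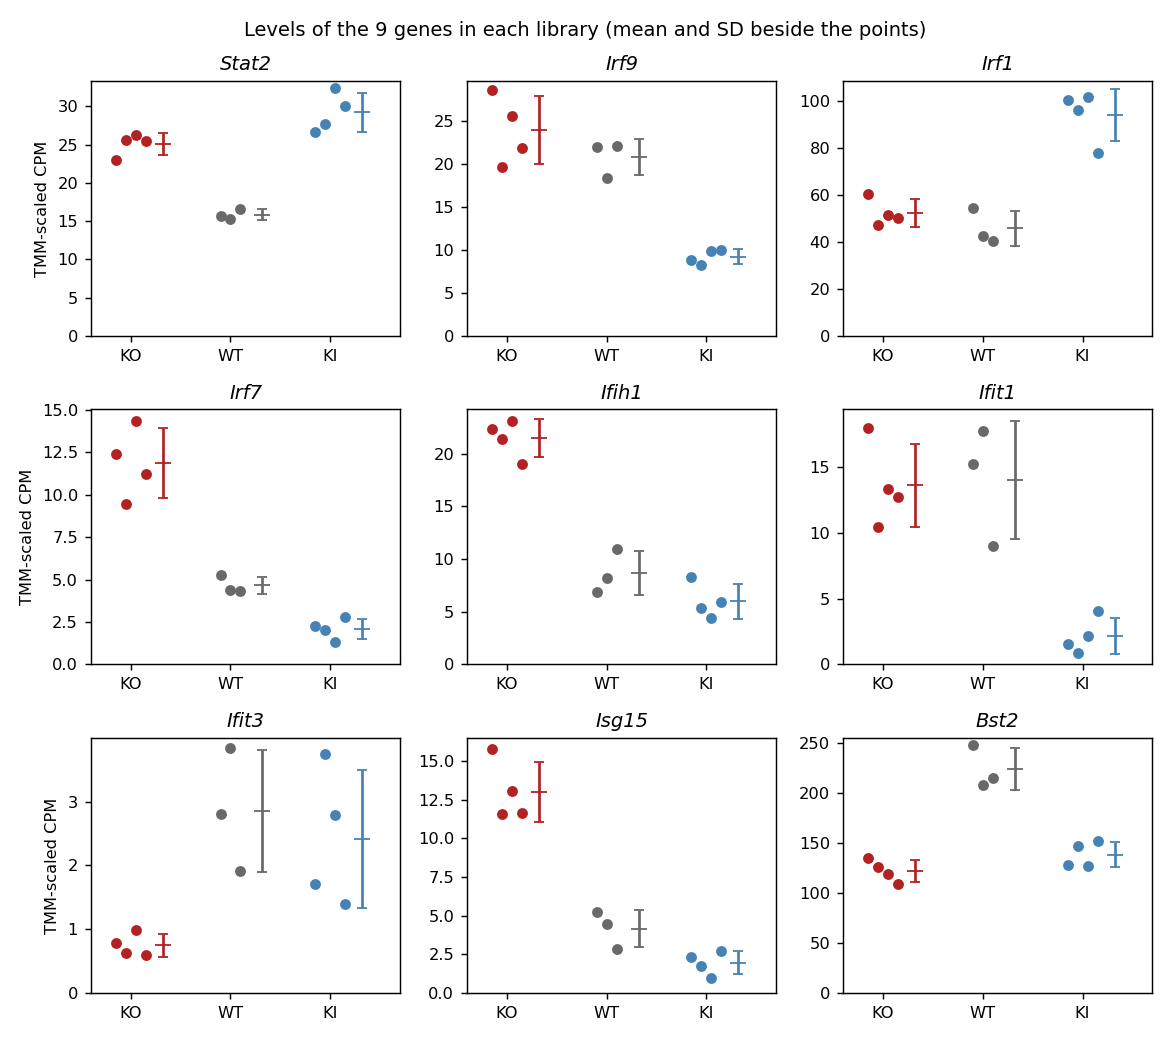
TMM-scaled CPM of the 9 genes in each library, with the mean and SD of each group (KO, n = 4; WT, n = 3; KI, n = 4) to the right of its points; each vertical axis is linear, starts at 0 and has its own range. *Isg15* and *Irf7* are stepped from KO through WT to KI, *Irf9* and *Ifit1* are low only in the KI libraries, *Ifit3* is low only in the KO libraries, and *Bst2* is highest in the WT libraries.

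STAT2 and IRF9 give the type I complex its activating domain and its DNA binding, and their genes had different patterns. *Stat2* (chromosome 10) had 23.0, 25.6, 26.2 and 25.5 CPM in the KO libraries, 15.6, 15.3 and 16.6 in the WT and 26.7, 27.7, 32.4 and 30.0 in the KI libraries. Every KO and KI library lay above every WT library, and the spread within each group was the smallest among the 9 genes, with coefficients of variation from 4.52% to 8.81%. The log2 fold change of *Stat2* was 0.64 (SE 0.13) for KO against WT and 0.88 (SE 0.14) for KI against WT. Between the KO and KI cells it was -0.22 (SE 0.10) and did not pass (adjusted p = 0.0840 in edgeR's quasi-likelihood test), although the libraries did not overlap. *Irf9* (chromosome 14) had 28.7, 19.7, 25.6 and 21.9 CPM in the KO, 22.0, 18.4 and 22.1 in the WT and 8.87, 8.22, 9.91 and 10.0 in the KI libraries. The KO and WT libraries overlapped, and all 4 KI libraries lay below both. *Irf9* was 2.59-fold higher in the KO than in the KI cells (log2 fold change 1.37, SE 0.14), and its log2 fold change for KI against WT was -1.17 (SE 0.15). The annotation places exons of *Rnf31*, a gene on the same strand, over those of *Irf9*, and *Rnf31* had log2 fold changes of 0.29, -0.55 and 0.86 in the 3 comparisons, of which the last was called.

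*Irf1* and *Irf7*, both transcription factors that are themselves induced by interferon, differed in opposite directions between the KI cells and the other lines. *Irf1* (chromosome 11) had 60.6, 47.1, 51.5 and 50.5 CPM in the KO, 54.5, 42.5 and 40.7 in the WT and 101, 96.2, 102 and 77.8 in the KI libraries. The KI libraries were the high ones and did not overlap with either other group, while the KO and WT libraries overlapped. The level was 2.05-fold higher in the KI than in the WT cells (log2 fold change 1.04, SE 0.15) and lower in the KO than in the KI cells (log2 fold change -0.84, SE 0.11). For KO against WT the log2 fold change of *Irf1* was 0.17 and that of *Irf9* 0.18, with adjusted p = 0.326 and 0.349 in edgeR's quasi-likelihood test. Both calls depended on the scaling: with library totals, *Irf1* had 0.60 and *Irf9* 0.58, and both passed. In the annotation, *Gm17334*, on the opposite strand, overlaps exons of *Irf1*. *Irf7* (chromosome 7) had 12.4, 9.48, 14.4 and 11.2 CPM in the KO, 5.26, 4.40 and 4.32 in the WT and 2.27, 2.04, 1.31 and 2.77 in the KI libraries. All 3 groups were separate, with the KO libraries highest and the KI libraries lowest. *Irf7* was 5.59-fold higher in the KO than in the KI cells (log2 fold change 2.48, SE 0.21), with log2 fold changes of 1.32 (SE 0.19) for KO against WT and -1.13 (SE 0.28) for KI against WT. *Phrf1*, on the opposite strand, overlaps *Irf7*. The protocol in the labels names no step that marks strand, and how strand was treated in counting is not given in the sources used here, so reads from the parts that *Irf7* or *Irf1* share with these genes may not be told apart. *Phrf1* was higher in both edited lines (log2 fold change 0.95 for KO against WT and 0.59 for KI against WT). The genes tested on chromosome 7 had a median log2 fold change of 0.53 for KO against WT. Other chromosomes of the 9 genes also had medians away from 0. For KO against WT these were -0.36 (chromosome 14), -0.34 (chromosome 11), -0.33 (chromosome 19), 0.30 (chromosome 4) and 0.27 (chromosome 2). For KI against WT the medians ran from -0.38 (chromosome 14) to 0.20 (chromosome 8). For KO against KI they ran from -0.27 (chromosome 11) to 0.43 (chromosome 7). Their part in the results was not tested.

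*Ifih1*, the sensor among the 9 genes (chromosome 2), had 22.3, 21.4, 23.1 and 19.0 CPM in the KO, 6.91, 8.15 and 10.98 in the WT and 8.25, 5.35, 4.39 and 5.96 in the KI libraries. The KO libraries were all high, and the WT and KI libraries overlapped. It was 2.42-fold higher in the KO than in the WT cells (log2 fold change 1.28, SE 0.18) and 3.57-fold higher than in the KI cells (log2 fold change 1.84, SE 0.17). For KI against WT the log2 fold change was -0.53 (SE 0.24) with adjusted p = 0.0885 in edgeR's quasi-likelihood test, which passed without KI 5 (log2 fold change -0.73, adjusted p = 0.0353) and with all 3 groups in the same fit (-0.54, adjusted p = 0.0428).

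Among the effectors, *Isg15* followed the order of *Irf7*. *Isg15* (chromosome 4) had 15.8, 11.6, 13.1 and 11.6 CPM in the KO, 5.22, 4.44 and 2.83 in the WT and 2.32, 1.76, 0.99 and 2.71 in the KI libraries. The KO libraries lay apart from all others, and the lowest WT library was just above the highest KI library. Its log2 fold change was 2.72 (SE 0.24) for KO against KI and 1.62 (SE 0.23) for KO against WT. The lower level in the KI than in the WT cells was less secure (log2 fold change -1.07, SE 0.34, adjusted p = 0.0237 in edgeR's quasi-likelihood test). This call was lost with library totals (-0.73, adjusted p = 0.0837) and without WT 5-6 (-0.88, adjusted p = 0.102), WT 7 (-1.02, adjusted p = 0.0762), KI 6 (-1.03, adjusted p = 0.0573) or KI 7 (-0.86, adjusted p = 0.0517) in the same test.

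*Ifit1* and *Ifit3* lie close together on chromosome 19, but their levels separated different lines. *Ifit1* had 17.9, 10.5, 13.3 and 12.7 CPM in the KO, 15.3, 17.7 and 8.99 in the WT and 1.54, 0.88, 2.20 and 4.08 in the KI libraries. The KO and WT libraries overlapped widely, the KI libraries were all low, and the spread was the largest among the 9 genes in the KI cells, with a coefficient of variation of 63.4%. *Ifit1* was 6.18-fold higher in the KO than in the KI cells (log2 fold change 2.63, SE 0.32) and had a log2 fold change of -2.66 (SE 0.39) for KI against WT. For KO against WT it was -0.06 (SE 0.25), a value whose sign turned to 0.38 with library totals and was positive without KO 6, WT 5-6 or WT 7 (0.04, 0.03 and 0.18). *Ifit3* had 0.79, 0.62, 0.99 and 0.60 CPM in the KO, 2.81, 3.83 and 1.91 in the WT and 1.71, 3.75, 2.80 and 1.40 in the KI libraries. Here the KO libraries were the low ones, on between 21 and 33 counts each, and the WT and KI libraries overlapped. The log2 fold change of *Ifit3* was -1.87 (SE 0.36) for KO against WT and -1.62 (SE 0.36) for KO against KI. For KI against WT it was -0.23 (SE 0.37), not called, and 0.11 with library totals and 0.04 without WT 7. Close copies lie beside both genes, so that reads could be split between them. The copy *Ifit3b* also had a lower level in the KO than in the WT cells (log2 fold change -1.47, SE 0.50), whereas *Ifit2*, another gene of the cluster, did not pass in any comparison (log2 fold changes -0.41, -0.24 and -0.14).

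*Bst2* (chromosome 8) was lower in both edited lines. It had 135, 126, 119 and 109 CPM in the KO, 248, 208 and 215 in the WT and 127, 147, 127 and 151 in the KI libraries. All WT libraries lay above all KO and KI libraries, which overlapped with each other. The log2 fold change was -0.89 (SE 0.12) for KO against WT and -0.69 (SE 0.13) for KI against WT, and -0.17 (SE 0.09) for KO against KI, which did not pass (adjusted p = 0.126 in edgeR's quasi-likelihood test).

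**Figure D3:**
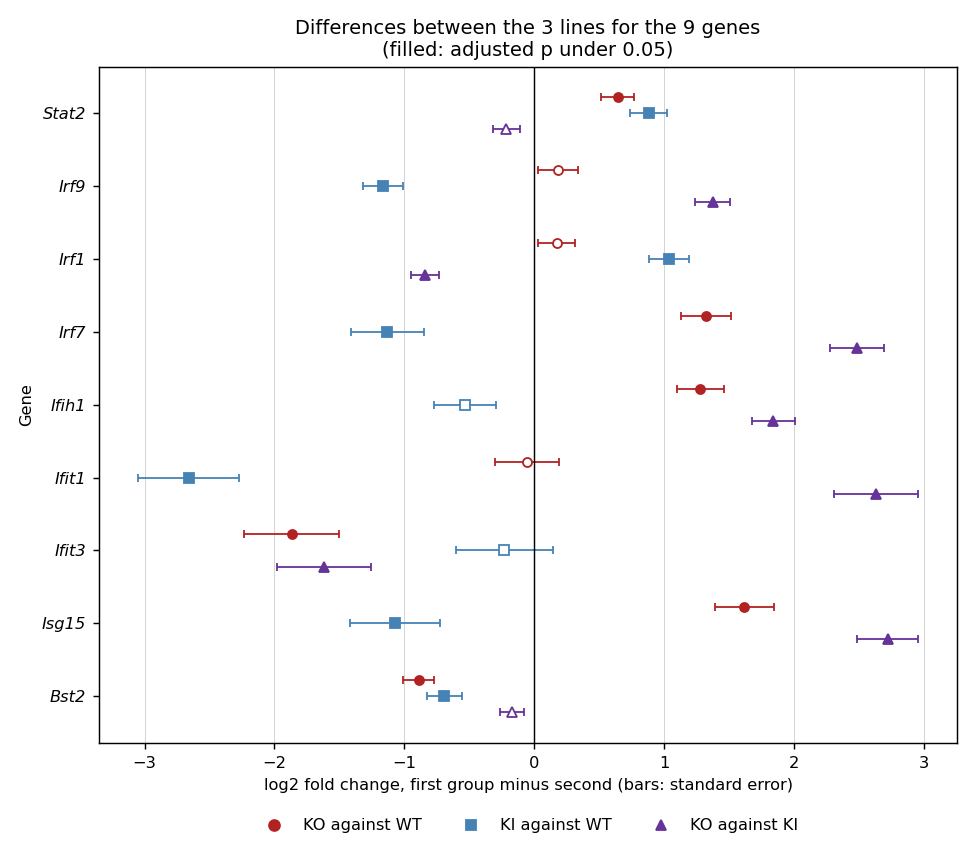
Log2 fold changes of the 9 genes, with standard errors, for KO against WT (circles), KI against WT (squares) and KO against KI (triangles), positive where the first group is higher; filled symbols passed an adjusted p of 0.05. *Irf7* and *Isg15* lie on opposite sides of 0 in the first 2 comparisons, *Stat2* and *Bst2* on the same side, and the comparisons of KO and KI against WT share the WT libraries.

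Per kilobase of transcript, a scale on which different genes can be set side by side, *Bst2* was the most abundant of the 9 genes in every line, with means of 154 CPM per kb in the KO, 282 in the WT and 175 in the KI cells. *Irf1* came next, with 24.5, 21.5 and 44.1. In the KO cells *Isg15* followed at 17.2 ± 2.58 (SD, n = 4), then *Irf9* at 9.74 ± 1.61, and *Irf7*, *Stat2* and *Ifit1* came between 6.20 and 5.12, which is within their spread. *Ifit3* was last at 0.43. In the WT cells *Irf9* came after *Irf1* at 8.48, ahead of *Isg15* at 5.51 ± 1.61 and *Ifit1* at 5.27 ± 1.69 (SD, n = 3), which did not differ beyond their spread, and *Ifit3* and *Ifih1* were last, at 1.63 ± 0.55 and 1.59 ± 0.38. In the KI cells *Stat2* came after *Irf1* at 6.64, then *Irf9* at 3.76, while *Ifih1* and *Irf7*, both at 1.09, and *Ifit1*, at 0.82 ± 0.52 (SD, n = 4), were indistinguishable.

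The ligands were at the floor of detection. Of 21 interferon genes in the table, 17 had 0 counts in all 11 libraries, and the other 4 together had 8 counts. No library had more than 3 counts of any of them, the highest being *Ifne*, and none could be tested. Each of these genes thus had no more than the floor of 3 counts per library, which covers counting error only. Many of them are *Ifna* genes, which are close copies of each other. Reads shared by such copies may have been split or dropped, since the counting tool is not given. *Ifnb1*, the first interferon that most cells make on infection, had 1 count, in a KI library.

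Transcripts of the receptors were found in every line. The counts of this and the following lists are to be read against the shares of all genes tested. For KO against WT, 26.7% of all genes were higher and 28.4% lower. For KI against WT these shares were 21.2% and 21.0%, and for KO against KI 27.0% in each direction. Of 6 receptor genes, 4 were higher and none lower in the KO than in the WT cells, 2 were lower in the KI than in the WT cells, and 5 were higher in the KO than in the KI cells. With library totals the counts were 6 higher and 0 lower for KO against WT, and 2 higher and 1 lower for KI against WT, a scaling under which 72.8% and 76.3% of all genes called in these comparisons were higher. *Ifnar1* and *Ifnar2* encode the chains of the type I receptor. *Ifnar2* was 2.25-fold higher in the KO than in the KI cells (mean 54.6 against 24.3 CPM, log2 fold change 1.17), with 47.7 CPM in the WT cells. *Ifnar1* averaged 70.7, 52.3 and 48.1 CPM in the KO, WT and KI cells, with log2 fold changes of 0.41 for KO against WT (called) and -0.12 for KI against WT (not called). *Il10rb*, the shared chain of the type III receptor, had log2 fold changes of 0.70 and -0.48 in the same comparisons, both called, and *Ifnlr1*, its specific chain, 1.01 (called) and 0.51 (not called, but 0.84 and called with library totals). Of the chains of the interferon gamma receptor, *Ifngr2* was higher in the KO than in the WT cells (0.44) and had -0.15 for KI against WT, and *Ifngr1* did not pass in any comparison, but did with library totals for KO and KI against WT (0.61 and 0.64) and without KI 8 for KI against WT (0.40). The call of *Ifnar1* for KO against WT was lost without KO 5, KO 6, KO 8, WT 5-6 or WT 7 (0.42, 0.39, 0.39, 0.30 and 0.44), and that of *Il10rb* for KI against WT without WT 5-6 or KI 6 (-0.37 and -0.45) and with library totals (-0.14). The value of *Ifnar2* for KO against WT, 0.18 and not called, was called with library totals (0.60).

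Of the kinases below the receptors, *Jak2*, a kinase of the gamma receptor, was lower in both edited lines (log2 fold change -1.01 for KO against WT and -0.67 for KI against WT, the latter not called with library totals at -0.34), *Jak1* was higher in the KO than in the WT cells (0.45), and *Tyk2* did not pass in any comparison (-0.24, -0.20 and -0.03, all of them positive with library totals). With *Stat2* and *Irf9* in the list, 2 of 5 genes were higher and 1 lower for KO against WT (3 and 1 with library totals), 1 higher and 2 lower for KI against WT (2 and 1 with library totals), and 2 higher and 1 lower for KO against KI. The count of 2 higher for KO against KI rested on *Jak1* (log2 fold change 0.22) and fell to 1 with no filter on low counts, without the 2 newly assembled entries, with all groups in the same fit, and without KO 6, KO 7, KO 8, KI 5, KI 6 or KI 8. For KI against WT the count higher rose to 2 without WT 8. In each comparison 60.0% of this list was called, where the shares of all genes called were 55.1%, 42.3% and 54.0%.

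Of 8 IRF genes listed, 6 were tested. With *Irf1*, *Irf7* and *Irf9* among them, 2 were called for KO against WT, both higher (4 with library totals), 2 higher and 2 lower for KI against WT (3 and 2 with library totals), and 3 higher and 1 lower for KO against KI. For KI against WT the count higher fell to 1 without WT 5-6, WT 7 or KI 5 and with all groups in the same fit, and for KO against KI the count lower rose to 2 without KO 5. Called were 33.3%, 66.7% and 66.7% of the 6 IRF genes, against 55.1%, 42.3% and 54.0% of all genes. *Irf3*, the constitutive factor that acts below the RNA and DNA sensors, was higher in the KO than in the WT cells (log2 fold change 0.59) and than in the KI cells (0.49). *Irf5*, at means of 0.22 CPM in the WT and 0.89 in the KI cells, was higher in the KI than in the WT cells (1.75, SE 0.55). *Irf2* did not pass in any comparison.

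Of the 13 sensors and adaptors, *Ifih1* included, 5 were higher and 3 lower for KO against WT (7 and 1 with library totals), 4 higher and 3 lower for KI against WT, and 7 higher and 2 lower for KO against KI. The count higher fell to 3 without KO 8 for KO against WT, and to 2 without WT 5-6 or WT 7 for KI against WT. For KO against WT the count lower was 2 without KO 5, KO 6, KO 7, KO 8, WT 7 or WT 8. With all libraries 61.5%, 53.8% and 69.2% of these genes were called, against 55.1%, 42.3% and 54.0% of all genes. *Ddx58* (RIG-I, the sensor of short double-stranded RNA) had log2 fold changes like those of *Ifih1*, with 1.01 for KO against WT and 1.31 for KO against KI, both called, and -0.28 for KI against WT, not called. *Dhx58* (LGP2, which modulates both) averaged 8.29 CPM in the KO, 10.8 in the WT and 1.31 in the KI cells, with a log2 fold change of -2.99 (SE 0.23) for KI against WT. *Mavs*, the mitochondrial adaptor of these helicases, was higher in both edited lines (log2 fold change 1.57 for KO against WT and 0.67 for KI against WT), although the latter call was lost without WT 5-6 (0.52) or WT 7 (0.65). *Sting1*, the adaptor of cytosolic DNA sensing, averaged 1.02 CPM in the KO, 2.71 in the WT and 6.08 in the KI cells. It was lower in the KO and higher in the KI than in the WT cells (log2 fold changes -1.37, SE 0.32, and 1.16, SE 0.26), the opposite order to that of *Irf7*. *Cgas*, a sensor of cytosolic DNA, was instead higher in the KO than in the WT cells (1.43, SE 0.48), on means of 1.56 and 0.53 CPM. It did not pass in the other comparisons. *Zbp1* was lower in the KI than in the WT cells (-2.06, SE 0.50), on means of 0.25 and 1.27 CPM, and higher in the KO than in the KI cells (1.75). The kinases that activate IRF3 and IRF7 also differed, with *Tbk1* higher in both edited lines (0.41 and 0.62) and *Ikbke* lower in both (-0.63 and -1.18). For KO against WT the call of *Tbk1* was lost without KO 8 (0.39), and that of *Ikbke* with library totals (-0.21). *Tlr3* was lower in the KO than in the WT (-0.40) and KI cells (-0.54). *Ticam1* was called only for KO against KI (0.61) and *Traf3* only for KI against WT (0.44), and *Trim25* did not pass in any comparison.

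**Figure D4:**
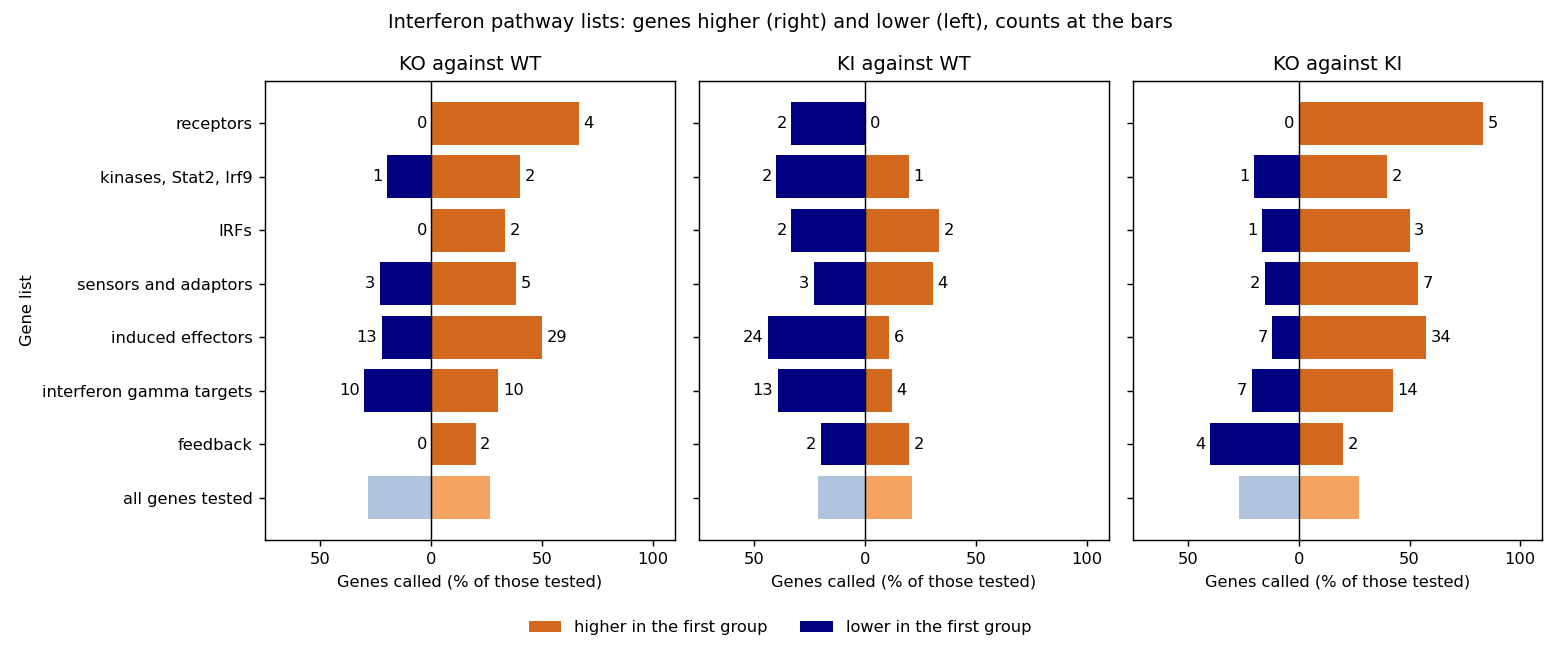
Genes of each interferon pathway list called as higher (orange, to the right) or lower (blue, to the left) in the first group named, in percent of the genes tested in the list, with their number at the bar; the pale bars at the bottom give the same for all genes tested. For KO against KI, 34 of the 59 tested effectors are higher and 7 lower, while for KI against WT 24 of 55 are lower and 6 higher; the lists share genes with each other and with the 9 genes, and with library totals the KI against WT effectors are 10 higher and 14 lower.

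The wider list of 68 interferon-induced effectors includes *Ifit1*, *Ifit3*, *Isg15* and *Bst2*. For KO against WT, 29 of 58 tested genes were higher and 13 lower, and with library totals 36 and 8. For KI against WT, 6 of 55 were higher and 24 lower, and with library totals 10 and 14, where 76.3% of all genes called were higher. The count lower fell to 15 without WT 5-6 and 16 without KI 6, with medians of -0.43 and -0.42 that were close to that with all libraries. For KO against KI, 34 of 59 were higher and 7 lower, and with library totals 36 and 6. Called in either direction were 72.4%, 54.5% and 69.5% of the effectors tested, against 55.1%, 42.3% and 54.0% of all genes. The median log2 fold changes of the effectors were 0.50, -0.42 and 0.64. Taking all lists without the 9 genes, 49 genes were higher and 25 lower of 119 tested for KO against WT, 17 and 41 of 116 for KI against WT, and 60 and 20 of 120 for KO against KI.

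Many of the induced genes with the largest changes were highest in the KO and lowest in the KI cells, but others were not. *Ifitm3*, whose product blocks the entry of enveloped viruses, had 111, 82.9, 82.8 and 74.0 CPM in the KO, 8.92, 5.57 and 7.01 in the WT and 2.60, 4.60, 2.93 and 3.07 in the KI libraries. All 3 groups were separate, with log2 fold changes of 3.59 (SE 0.20) for KO against WT, -1.10 (SE 0.25) for KI against WT and 4.71 (SE 0.18) for KO against KI. *Ifitm2*, of the same family, averaged 417, 523 and 422 CPM in the KO, WT and KI cells. It did not pass in any comparison (-0.34, -0.31 and -0.01), and reads could be split between it and *Ifitm3*. *Usp18*, which removes ISG15 from its targets and damps receptor signalling, had log2 fold changes of 2.21, -1.50 and 3.75 in the same order, and *Ube2l6*, which conjugates ISG15, had 1.08, -1.21 and 2.32. The oligoadenylate synthetase family, whose active members switch on RNase L when they meet double-stranded RNA, was divided. *Oas3* had 1.66, -1.45 and 3.13, *Oas1a* 0.64, -2.79 and 3.46, and *Oas1g* 1.42, -2.97 and 4.45, all called. *Oas1g* had only 5, 4, 13 and 4 counts in the KI libraries, close to the floor of 3. Reads could be split between the *Oas1* genes, which are similar to each other. *Oas1c*, by contrast, was lower in both edited lines (-2.28 and -1.99), and *Oasl1* was higher in both (1.94 and 1.00). *Oasl2* and *Rtp4* were higher in the KO than in the WT cells (2.32 and 2.14) and than in the KI cells (3.02 and 2.90). *Slfn2* was lower in both edited lines (-2.21 and -0.67), and so was *Ifit1bl1*, a copy of *Ifit1* (-1.16 and -1.30), while *Ifi27* was higher in both (0.78 and 1.24). Some of these calls were lost without a library. For KO against WT that of *Oas1a* was lost without KO 5, KO 6, KO 7, WT 5-6 or WT 7 (0.65, 0.66, 0.51, 0.52 and 0.55), and that of *Ifi27* without KO 5, KO 6 or WT 7 (0.57, 0.77 and 0.63). *Ifit1bl1* was not called without KO 5, KO 6, KO 7, WT 5-6 or WT 7 (-1.19, -1.16, -0.98, -1.04 and -1.01), nor for KI against WT without KI 5, KI 6, KI 7, WT 5-6 or WT 7 (-1.32, -1.12, -1.24, -1.19 and -1.17). With library totals, *Ifit1bl1* was not called in either comparison (-0.74 and -0.96) and *Slfn2* not for KI against WT (-0.31).

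The targets of interferon gamma, of which 33 of 38 listed were tested, were evenly divided for KO against WT, with 10 higher and 10 lower (15 and 7 with library totals). For KI against WT, 4 were higher and 13 lower (7 and 8 with library totals), and for KO against KI 14 higher and 7 lower. Called were 60.6%, 51.5% and 63.6% of these targets, against 55.1%, 42.3% and 54.0% of all genes. *Psmb8*, an immunoproteasome subunit, averaged 37.8 CPM in the KO, 11.8 in the WT and 4.44 in the KI cells, with log2 fold changes of 1.65, -1.40 and 3.08, and *Tap1*, a peptide transporter, had 0.90, -1.59 and 2.51. *Psmb9*, another subunit, was lower in the KI than in the WT cells (-1.61) and had 0.28 for KO against WT, not called (0.68 and called with library totals). *Nlrc5*, the activator of class I antigen presentation genes, was higher in both edited lines (2.36 and 1.68). Of the inflammatory caspases, *Casp1* was lower in the KO than in the WT (-2.95) and KI cells (-2.30) and *Casp4* was lower in both edited lines (-2.16 and -2.34). For KI against WT *Casp1* was not called with all libraries. Without 1 library its value ran from -0.93 to -0.40, and it was called without WT 8 (-0.93). *Il15*, a cytokine, was higher in the KI than in the WT cells (1.24), and *Tgtp2*, a GTPase, was lower in the KO (-1.43) and higher in the KI (0.69) than in the WT cells. The last call was lost without KI 5, KI 6, KI 7, KI 8, WT 7 or WT 8 (0.70, 0.72, 0.68, 0.66, 0.54 and 0.49). *Tgtp1*, a close copy of *Tgtp2*, averaged 3.53 CPM in the KO, 10.7 in the WT and 11.4 in the KI cells. Reads could be split between these copies. Of the 10 feedback genes, which include *Isg15* and *Usp18*, 2 were higher and none lower for KO against WT (5 and 0 with library totals), 2 higher and 2 lower for KI against WT (5 and 1 with library totals, and 1 lower without WT 5-6, WT 7, KI 6 or KI 7), and 2 higher and 4 lower for KO against KI.

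**Figure D5:**
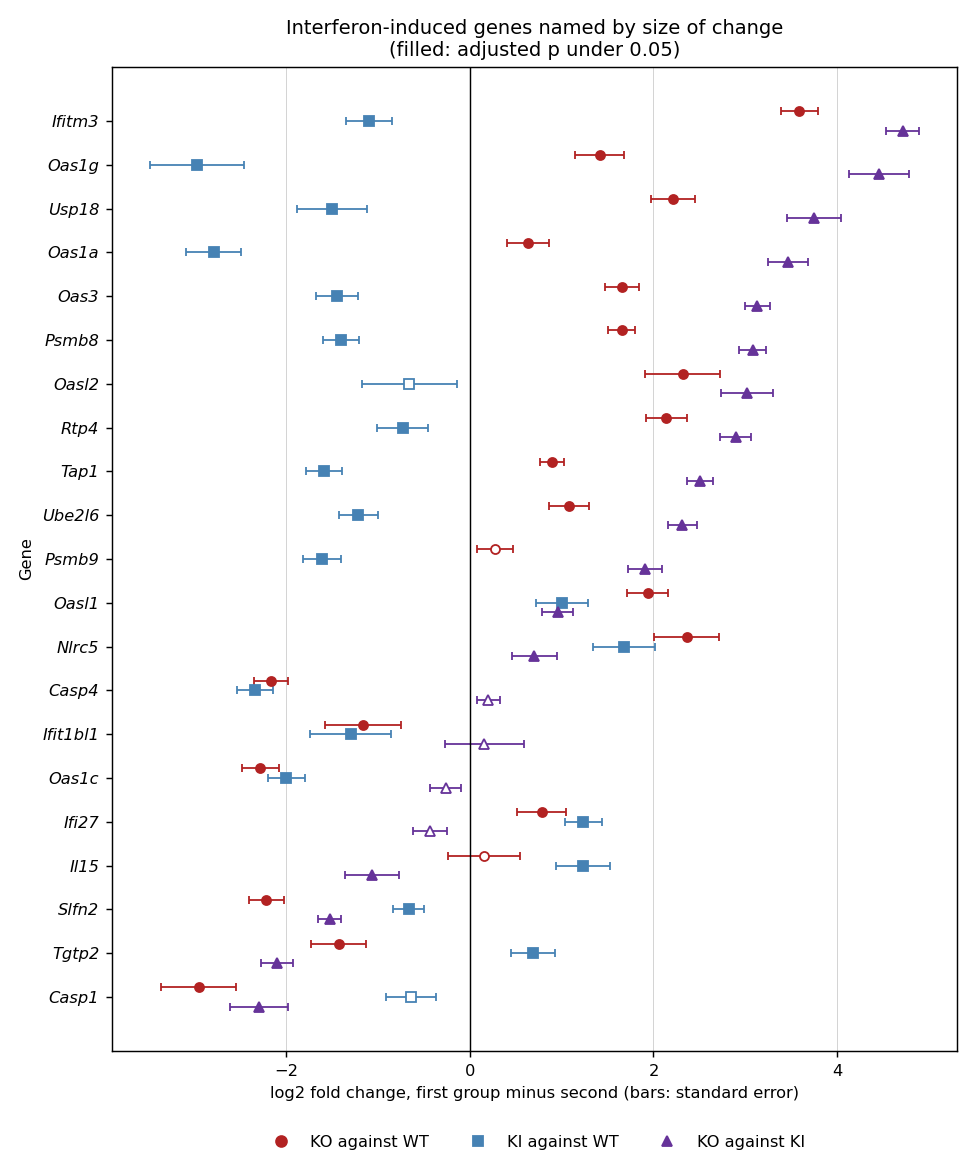
Log2 fold changes, with standard errors, of the 21 induced genes named by size of change, for KO against WT (circles), KI against WT (squares) and KO against KI (triangles), in order of the last; filled symbols passed an adjusted p of 0.05. From *Ifitm3* to *Ube2l6* the KO against WT values are positive and the KI against WT values negative. In contrast, *Casp1*, *Casp4*, *Ifit1bl1*, *Oas1c* and *Slfn2* are negative in both, with *Casp1* not called for KI against WT. The WT libraries are shared.

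The genes whose profile over the 11 libraries was most like that of each of the 9 genes were all outside the pathway lists. Besides the 9 genes, the lists hold only 152 genes of the count table. A nearest gene outside them therefore says little on likeness to the pathway, and no rank was tested. Among 11707 genes, Pearson's r of log2 CPM was highest with *Hspa5* for *Isg15* (0.98), *Edem1* for *Ifih1* (0.98), *Apol7a* for *Irf7* (0.98), *Ambp* for *Irf9* (0.99), *Abcb10* for *Stat2* (0.98), *Aprt* for *Irf1* (0.97), *Tmem45a* for *Ifit1* (0.98), *Map4k5* for *Ifit3* (0.95) and *Cox6a1* for *Bst2* (0.99). *Hspa5* (BiP) and *Edem1* encode a chaperone and a degradation factor of the endoplasmic reticulum. The nearest gene of the pathway lists ranked between 10 and 24 among all genes for *Ifih1* (*Irgm2*, 0.97, rank 10), *Ifit3* (*Casp1*, 0.92), *Bst2* (*Oas1c*, 0.97), *Isg15* (*Parp9*, 0.96), *Irf7* (*Usp18*, 0.97) and *Irf9* (*Oas1a*, 0.97, rank 24). It ranked far lower for *Ifit1* (*Trim34a*, 0.92, rank 86), *Irf1* (*Psmb10*, 0.91, rank 92) and *Stat2* (*Socs3*, 0.89, rank 405). These values describe profiles set mainly by the differences between the 3 lines, and all points share the same libraries and scaling.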

How the data were processed

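The deposited table gives the number of reads counted per gene in each library. Per the labels, mRNA was taken up on oligo(dT) beads. Per the paper's methods, the authors had reads cleaned, mapped to the genome and quantified at a sequencing centre. The deposited counts are whole numbers with a different total in each library. The submitters' processing notes name HISAT2, TopHat2, Bowtie2 and StringTie; versions, the genome build and the counting tool are not given in the sources used here. Of 26472 lines, 10 broken ones were left out, and counts were summed by gene name. FPKM and the authors' own fold changes and p-values, also in the table, were not used here.

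Total counts were between 29840366 and 38422243 per library. Groups were taken from the titles. Genes were filtered with filterByExpr, scaled by TMM and tested with edgeR 4.0.16 (R 4.3.3) by the quasi-likelihood test, with a prior count of 2 and only the libraries of the groups compared; an adjusted p (Benjamini-Hochberg) under 0.05 was a call. Levels use 1 TMM scaling over all 11 libraries. The procedure was run on simulated counts in which few genes changed. Of genes with a log2 change of 1, 69.5% were found for KO against WT. The share was 75.5% for KI against WT and 89% for KO against KI. False calls numbered 10, 13 and 20. With so few changed genes, the run cannot test the scaling for data in which 42.3% to 55.1% of genes were called. Alternatives were DESeq2 1.42.0, library totals, no filter, leaving out 2 newly assembled entries, all groups in the same fit, a replicate block and leaving out each library.

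Named besides the 9 genes were the tested receptors, kinases, IRFs and sensors. Up to 12 called effector, target or feedback genes were also named per comparison, those with the largest change, no overlap and a mean log2 CPM of at least 0. *Ifit2*, *Ifit3b*, *Ifit1bl2*, *Ifitm2*, *Tgtp1*, *Phrf1* and *Rnf31* were added as neighbours or copies. These added genes, and *Irf2*, *Irf5*, *Tlr3*, *Ticam1*, *Cgas*, *Zbp1*, *Traf3* and *Trim25*, were not followed gene by gene under the alternatives. Some genes of the pathway are not reported here and stand in no list. The genes and lists were chosen with earlier results of these data known. Locations and lengths (longest principal transcript) are from GENCODE M21 (GRCm38), and promoters from RefSeq. Figures were drawn with matplotlib 3.10.9.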

Additional observations from a re-analysis of the deposited data

Results flagged for a closer look

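In groups of 4 libraries, 1 library stood far from the others in 4 of 94 sets of values examined, where chance gives about 4.7. *Ifngr2* had 91.1 CPM in KI 6 against 79.7 to 81.5 in the other KI libraries (gap 0.84 of the range). *Il10rb* had 52.2 CPM in KO 7 against 47.0 to 47.4 in the other KO libraries (gap 0.91 of the range). *Tbk1* had 37.7 CPM in KI 8 against 51.6 to 52.0 (gap 0.97 of the range), and *Oas1g* had 0.34 CPM in KI 7 against 0.11 to 0.14 (gap 0.87 of the range). None of the 9 genes had such a library.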

How the results depend on the processing

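Of 360 results for the 9 genes under the alternatives, 345 kept their direction and their side of the threshold. No called result changed sign for the named genes followed under them. Called genes numbered 7364, 5722 and 7171 for KO against WT, KI against WT and KO against KI, and from 6161 to 8449, 4276 to 6969 and 6515 to 7230 without 1 library. Of the 9 genes, 6, 7 and 7 were called, and without 1 library 6, from 6 to 8, and 7. Library totals turned the sign of uncalled values: *Ifit1* 0.38, *Tyk2* 0.16 and *Dhx58* 0.0087 for KO against WT, *Ifit3* 0.11, *Tyk2* 0.12, *Ifnar1* 0.19, *Ifngr2* 0.19 and *Ddx58* 0.029 for KI against WT, and *Tyk2* 0.035 for KO against KI. Leaving out 1 library did so for *Ifit1* (-0.27 to 0.18) and *Il15* (-0.14 to 0.45) for KO against WT, *Ifit3* (-0.52 to 0.037), *Ifnar1* (-0.25 to 0.024) and *Oasl2* (-0.95 to 0.01) for KI against WT, and *Tyk2* (-0.083 to 0.0033) and *Ifit1bl1* (-0.023 to 0.40) for KO against KI. Feedback genes called for KO against WT rose from 2 to 5 with library totals and to 4 with all groups in the same fit. IRF genes called rose from 2 to 4 with library totals, and sensors called fell from 8 to 5 without KO 8. Receptors called for KI against WT fell from 2 to 1 without WT 5-6 or KI 6. The cause was not tested. No pairing by replicate number was assumed: deviations of same-numbered libraries correlated between -0.19 and 0.21. With the number as a block, 8183, 4891 and 6453 genes were called in the 3 comparisons, and 6, 7 and 7 of the 9 genes. Of the other named genes followed under the alternatives, *Rtp4*, *Ifit1bl1* and *Tgtp2* for KI against WT and *Jak1* and *Nlrc5* for KO against KI did not pass with the block. The floor of 3 counts limits statements on the ligands.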
